A study of Mus musculus with 24 samples.

Results

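The stathmin family of the mouse was read here through every array probe annotated to Stmn1, Stmn2, Stmn3 or Stmn4. That gave 6 of the 45281 probes and 4 of the 19057 genes named on the array. Stmn1 and Stmn3 had 1 probe each, and Stmn2 and Stmn4 had 2 each, of which the brighter stood for the gene. The 6 probes all passed the filter on low values, which asked for a detection p under 0.01 on at least 3 arrays.

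Stathmins are small phosphoproteins that bind tubulin dimers and so withhold tubulin from growing microtubules. Phosphorylation by mitotic, mitogen activated and neuronal kinases switches this activity off, which lets microtubules assemble. Stmn1 (stathmin, Op18) is cytosolic and works in dividing cells as well as in neurons, whereas Stmn2 (SCG10), Stmn3 (SCLIP) and Stmn4 (RB3) carry a membrane anchor and are mainly neuronal, with Stmn2 enriched in growth cones. The olfactory epithelium replaces its sensory neurons throughout life from globose basal cells, and removing the olfactory bulb, the target of their axons, kills the mature neurons on that side and drives their replacement.

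RNA of sorted olfactory mucosa cells was measured on Illumina bead arrays in 8 groups of 3 arrays. Each mucosal array held a pool of 2 to 7 adult mice aged 8 to 12 weeks, and all cells were live, that is negative for propidium iodide. Sus, the sustentacular or supporting cells, came from heterozygous offspring of ∆Sox2-GFP and FVB/NJ mice and was gated for high GFP and no CD54. Sox2GBC, labelled as globose basal cells, came from the same cross and was gated for low GFP, no E-cadherin or CD54 and low scatter. Neurog1-OBX and Neurog1-Ctrl were GFP positive, low scatter cells of heterozygous Neurog1-GFP by FVB/NJ offspring, and OMP-OBX and OMP were the same gate in heterozygous ∆OMP-GFP by CD-1 offspring. In both OBX groups the mucosa lay on the operated side, 3 weeks after 1 bulb was removed, while the Ctrl and OMP groups were not operated. OM was the whole live mucosa of wild type mice, the F1 cross 129S1/SvImJ x C57BL/6J, and mREF was a commercial RNA pool of mouse cell lines run as 3 technical repeats. In comparisons between reporter lines, the line and the stage of the cells cannot be told apart.

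Between 33.9% and 48.3% of probes were detected per array, the mean signal ran from 215 to 722 intensity units, and Pearson's r between arrays of the same group, taken across genes, lay between 0.944 and 0.991. The standard deviation of the negative controls ran from 4.31 to 21.99 units, and arrays were put into 4 noise classes by it: all OMP-OBX arrays were of class 3 and all Neurog1-Ctrl arrays of class 4. Neurog1 was detected on 3 of 3 arrays of both Neurog1 groups and on 0 arrays of the other mucosal groups. Sox2 averaged 9.73 ± 0.23 in Sus and 6.23 ± 0.97 in Sox2GBC (SD, n = 3 each, log2 intensity), where it was detected on 2 of 3 arrays; in OMP it averaged 6.92 ± 0.20. The immature neuron markers summed to 15.78 to 15.89 in Neurog1-Ctrl and to 15.65 to 15.91 in Sox2GBC (log2 of the summed intensity, 8 of 8 genes with a probe), so these markers do not set Sox2GBC apart from young neurons. Omp averaged between 15.2 and 15.5 in every mucosal group but Sus (13.95 ± 0.24). Its highest reading was 15.551 in OM and in OMP, as was that of the sustentacular marker Cyp2g1 in Sus. Such shared values mark the upper end of the normalized scale, where differences in RNA may not show. P-values rest on the spread between these pools, estimated once per gene over all 7 mucosal groups. The wide spread of groups such as Sus thus enters every comparison, also those that leave Sus out. In bulk RNA of sorted pools, fewer cells of a type and less RNA per cell cannot be told apart.

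The start of Stmn3 is shown because Stmn3 is the member whose promoter the RefSeq table of GRCm38.p6 holds. The 250 bases before its start lie at chr2:181314501-181314750 on the minus strand, written 5′ to 3′ along the gene, with the letters CAGATG in capitals.

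Stmn3: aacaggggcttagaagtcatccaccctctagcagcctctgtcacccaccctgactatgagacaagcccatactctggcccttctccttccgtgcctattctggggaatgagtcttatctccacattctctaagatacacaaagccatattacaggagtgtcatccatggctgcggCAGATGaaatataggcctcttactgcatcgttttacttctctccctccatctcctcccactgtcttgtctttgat

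CAGATG is a form of the E-box CANNTG, the letters that proneural factors such as Neurog1 and Neurod1 are known to read, and it begins at -75, counted from the gene's start. Both strands were searched in windows of the same length: of 32851 promoters, 66.2% held CANNTG and 14.4% held CAGATG, so the match is common. The E-box form CAGCTG (13% of promoters), the Ebf palindrome (0.779%) and the homeodomain core TAATTA (4.84%) had 0 matches, which says only that these letters are not in this window. The CANNTG match in Stmn3 is the same stretch as CAGATG.

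All 4 genes were detected on every array of the mucosa, and their levels followed different orders over the groups. Values below are normalized log2 intensities, 1 per array, and a difference is a difference of their means with its standard error. Adjusted p values come from limma with Benjamini-Hochberg adjustment over 11870 genes, and a gene is called under 0.05. Levels of different genes come from different probes and are not set against each other. Whether the arrays of compared groups overlap is stated as a description, without the share of all genes that do not overlap. Counts at an unadjusted p under 0.05 are likewise descriptions, given without the share of all genes at that cutoff.

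Stmn1 read 7.60, 10.15 and 9.88 in Sus and 11.17, 11.18 and 11.11 in Sox2GBC. It read 11.85, 11.32 and 12.41 in Neurog1-OBX, against 11.55, 11.54 and 11.20 in Neurog1-Ctrl. In OMP-OBX it read 11.28, 10.95 and 11.13, against 6.70, 8.07 and 8.45 in OMP, while OM gave 8.88, 8.61 and 9.01. The 3 OMP arrays were thus the low end of the neuronal sorts, and every OMP-OBX array lay above every OMP array by more than 2 log2 units. In descending order the means ran Neurog1-OBX, Neurog1-Ctrl, Sox2GBC, OMP-OBX, Sus, OM and OMP. Of the 6 steps between neighbours only that between OMP-OBX and Sus passed (1.91 ± 0.49, adjusted p = 0.00234).

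Stmn2 read 11.12, 9.97 and 12.51 in Sus and 14.25, 14.23 and 14.51 in Sox2GBC. The Neurog1 groups lay together, with 14.48, 14.49 and 14.69 in Neurog1-OBX against 14.71, 14.32 and 14.47 in Neurog1-Ctrl. Values of 13.86, 13.53 and 13.59 in OMP-OBX stood against 11.97, 12.52 and 12.22 in OMP, and OM gave 12.67, 12.84 and 12.86. Every Sox2GBC and Neurog1 array was above every other array, OMP-OBX came next without overlap, and OMP lay below OM. Only the lowest step of the order passed, in which Sus lay below OMP (-1.03 ± 0.38, adjusted p = 0.0238), and the arrays of those groups overlapped because Sus replicate 3 was close to OMP.

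Stmn3 read 8.60, 7.402 and 9.64 in Sus and 11.99, 12.27 and 12.13 in Sox2GBC. In Neurog1-OBX it was 12.56, 11.90 and 11.95, against 12.53, 12.61 and 12.33 in Neurog1-Ctrl. In OMP-OBX it was 12.33, 12.06 and 12.23, against 10.94, 10.93 and 11.23 in OMP, and OM gave 10.34, 11.40 and 11.41. Sox2GBC, Neurog1-OBX, Neurog1-Ctrl and OMP-OBX formed an upper group, OMP and OM a middle one and Sus a low one. The passing steps were those from Sox2GBC to OM (1.08 ± 0.38, adjusted p = 0.0359), which ended without OM replicate 1 (0.72, adjusted p = 0.168) and without each Sox2GBC array (1.01 to 1.15, adjusted p = 0.0554 to 0.0931), and between Sus and OMP (adjusted p = 1.32e-05).

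Stmn4 read 8.20, 6.77 and 8.51 in Sus and 10.62, 11.22 and 10.34 in Sox2GBC. The Neurog1-OBX arrays gave 12.43, 12.10 and 12.21, against 12.02, 11.95 and 12.20 in Neurog1-Ctrl. The OMP-OBX arrays gave 13.16, 12.59 and 12.81, against 11.78, 12.10 and 12.07 in OMP, and OM gave 10.08, 11.59 and 11.58. Here OMP-OBX was the highest group and Sox2GBC lay among the lower ones, unlike the order of the other 3 genes. Only the step between Sus and Sox2GBC passed among the neighbours (adjusted p = 5.12e-06). Over all 21 pairs of mucosal groups, 13, 13, 13 and 12 pairs passed for Stmn1, Stmn2, Stmn3 and Stmn4, where a pair called between 0.379% and 60.4% of all genes, with a median of 36%.

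**Figure D1:**
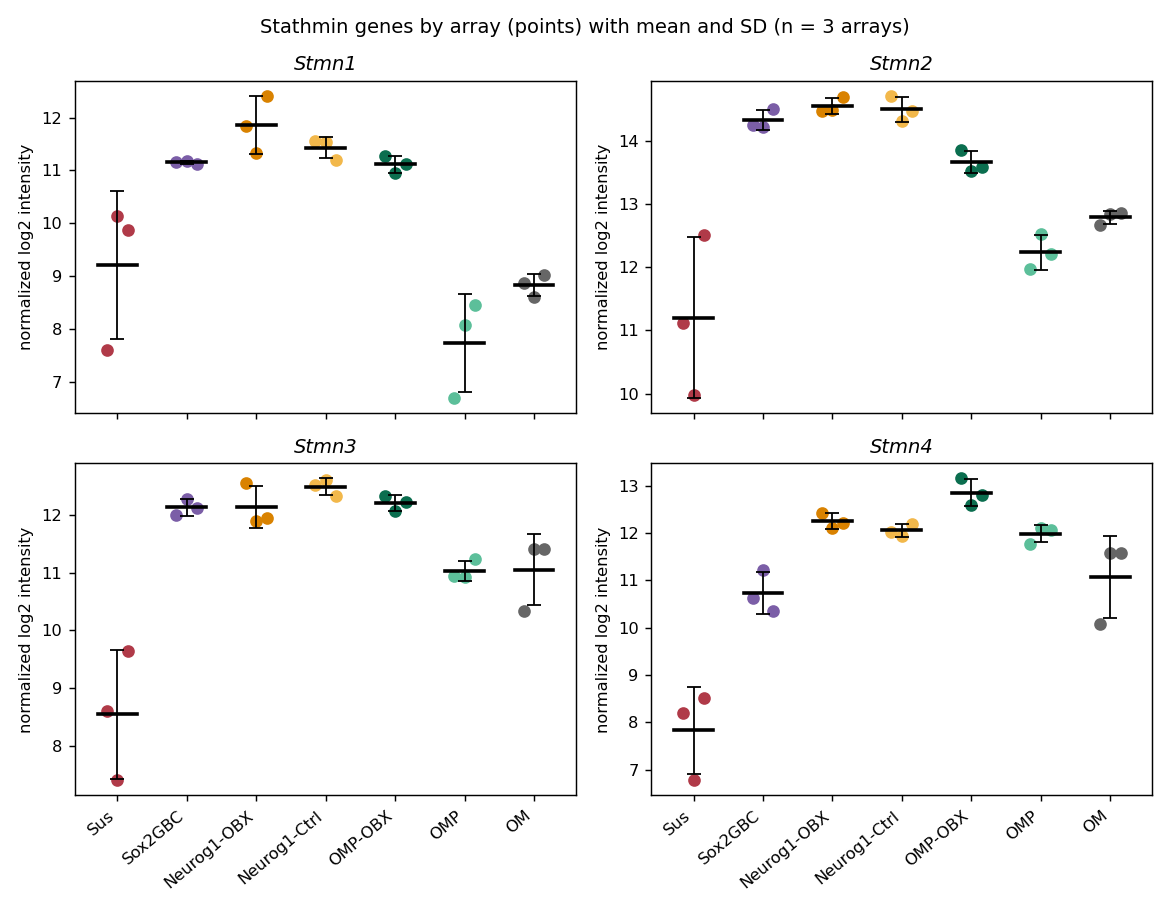
Normalized log2 intensity (vertical axis) of the 4 stathmin genes in the 7 mucosal groups (horizontal axis); points are arrays, the thick bar is the mean and the thin bar the SD of 3 arrays. Stmn1, Stmn2 and Stmn3 are low in OMP beside OMP-OBX, Stmn4 differs less between them, and the Sus arrays spread widely for every gene.

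OMP against Neurog1-Ctrl compares mature neurons with the precursors and young neurons of the other reporter line. Stmn1, Stmn2 and Stmn3 were lower in OMP and Stmn4 did not pass. Stmn1 averaged 7.74 ± 0.92 in OMP and 11.43 ± 0.20 in Neurog1-Ctrl (SD, n = 3 each), a difference of -3.69 ± 0.49 or 12.9-fold (adjusted p = 1.29e-05). The growth cone gene Stmn2 averaged 12.24 ± 0.28 and 14.50 ± 0.20 (-2.26 ± 0.38, 4.80-fold, adjusted p = 0.000132), and Stmn3 11.03 ± 0.17 and 12.49 ± 0.14 (-1.46 ± 0.38, 2.74-fold, adjusted p = 0.00585). For these 3 genes the arrays of the groups did not overlap. Stmn4 averaged 11.98 ± 0.18 and 12.06 ± 0.13, and the interval of its difference, -0.89 to 0.75, spans changes in both directions. Being called was common here: 36% of all genes were called and 18.1% were lower. Against Sox2GBC the same OMP arrays gave lower Stmn1 (-3.41 ± 0.49), Stmn2 (-2.09 ± 0.38) and Stmn3 (-1.10 ± 0.38, adjusted p = 0.0240), and higher Stmn4 (1.25 ± 0.39, adjusted p = 0.0133), where 46.9% of genes were called, 22.7% higher and 24.2% lower. The Stmn3 call ended without Sox2GBC replicate 2 or 3 or OMP replicate 1 or 2 (-1.10 to -1.03, adjusted p = 0.0517 to 0.0687), and the Stmn4 call without Sox2GBC replicate 3 (1.06, adjusted p = 0.0605). The OMP arrays enter both comparisons.

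Markers moved with these groups. The mature neuron markers summed to 17.78 to 17.80 in OMP and 16.85 to 17.00 in Neurog1-Ctrl (11 of 11 genes). The immature neuron markers summed to 14.11 to 14.54 in OMP, where Tubb3 was not detected on any array, and to 15.78 to 15.89 in Neurog1-Ctrl. Progenitor and precursor markers summed to 11.16 to 12.06 in OMP, with Neurog1 and Neurod1 not detected, and to 14.17 to 14.45 in Neurog1-Ctrl (7 of 8 genes), while sustentacular markers summed to 15.89 to 16.58 and 15.04 to 15.84 (9 of 9 genes, Ermn not detected). Their part in the stathmin differences was not tested. Within noise class 4, which held 1 OMP array and all Neurog1-Ctrl arrays, the differences were -3.36, -1.98, -1.56 and 0.04 for Stmn1 to Stmn4.

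Between Neurog1-Ctrl and Sox2GBC, Stmn4 was higher in Neurog1-Ctrl and the other stathmins did not pass. Stmn4 averaged 12.06 ± 0.13 in Neurog1-Ctrl and 10.73 ± 0.45 in Sox2GBC (SD, n = 3 each), without overlap of arrays (1.33 ± 0.39, 2.51-fold, adjusted p = 0.0249), where 17% of genes were called and 7.98% were higher. This call ended when Sox2GBC replicate 1, Sox2GBC replicate 3, Neurog1-Ctrl replicate 1 or Neurog1-Ctrl replicate 3 was left out (1.13 to 1.34, adjusted p = 0.0678 to 0.104), and with the noise class as a block (0.91 ± 0.30, adjusted p = 0.0509). The second Stmn4 probe read 1.23 ± 0.39 (adjusted p = 0.0363 over 21711 probes, of which 15.9% were called). Differences of Stmn1 (0.28 ± 0.49), Stmn2 (0.17 ± 0.38) and Stmn3 (0.36 ± 0.38) were smaller than or near their standard errors, with intervals from -0.75 to 1.30, -0.62 to 0.96 and -0.44 to 1.16. The arrays of Stmn1 and Stmn3 did not overlap between these groups, and those of Stmn2 did. Mature neuron markers summed to 16.85 to 17.00 in Neurog1-Ctrl and 16.36 to 16.74 in Sox2GBC. In the same order, sustentacular markers summed to 15.04 to 15.84 and 16.21 to 16.88, and Bowman gland markers to 10.68 to 12.31 and 14.10 to 14.48. The ranges of immature neuron markers and of progenitor and precursor markers overlapped. The part of these markers in the Stmn4 difference was not tested.

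Bulbectomy was followed in the same reporter lines. In OMP cells, Stmn1 and Stmn2 were higher 3 weeks after removal of the bulb, and all 4 genes had arrays that did not overlap between OMP-OBX and OMP. The share of all genes without overlap is not given here, so that count only describes these arrays. Stmn1 averaged 11.12 ± 0.16 in OMP-OBX and 7.74 ± 0.92 in OMP (SD, n = 3 each), a difference of 3.38 ± 0.49 or 10.4-fold (adjusted p = 0.000178). Before normalization its signal was 2044, 1747 and 2099 units in OMP-OBX, against 80.1, 335 and 296 units in OMP. Stmn2 averaged 13.66 ± 0.17 and 12.24 ± 0.28 (1.42 ± 0.38, 2.68-fold, adjusted p = 0.0216). Stmn3 differed by 1.17 ± 0.38 (adjusted p = 0.0636) and Stmn4 by 0.87 ± 0.39 (adjusted p = 0.205), without passing. Of all genes, 8.66% were called and 4.25% were higher, so 2 of 4 members called stands against a lower share over all genes, although the members are few and were chosen with such results known.

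How firm these calls are differs by gene. Stmn1 passed under all 12 other settings (2.56 to 3.44) and all 6 fits without 1 array (2.86 to 3.73). Stmn2 missed the threshold without OMP replicate 1 (1.29, adjusted p = 0.0966), OMP replicate 3 (1.41, adjusted p = 0.0518), OMP-OBX replicate 1 (1.33, adjusted p = 0.0886) or OMP-OBX replicate 3 (1.46, adjusted p = 0.0555), and with the noise class as a block (1.30, adjusted p = 0.0919). The mean of its probes missed it too (0.80, adjusted p = 0.104), and its dimmer probe read 0.18 ± 0.28. Stmn3 passed under 7 of the 12 other settings, with adjusted p from 0.0113 to 0.141. The lowest came with the compared groups alone, where its standard error was 0.18 instead of 0.38. Within noise class 3, which held the OMP-OBX arrays and 1 OMP array, the differences were 2.67, 1.44, 0.97 and 0.78 for Stmn1 to Stmn4.

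Marker levels moved between OMP-OBX and OMP too. Immature neuron markers summed to 15.10 to 15.35 in OMP-OBX and 14.11 to 14.54 in OMP, and progenitor and precursor markers to 12.96 to 13.41 and 11.16 to 12.06, with Neurog1 and Neurod1 not detected on any array of either group. Mature neuron markers summed to 17.37 to 17.49 in OMP-OBX and 17.78 to 17.80 in OMP, and sustentacular markers to 15.12 to 15.78 and 15.89 to 16.58. Their part in the rise of Stmn1 and Stmn2 was not tested.

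In the Neurog1 line the lesion gave no called stathmin with limma: 0 of 4 passed, 0 of 4 had an unadjusted p under 0.05, and 0.379% of all genes were called. Stmn1 averaged 11.86 ± 0.54 in Neurog1-OBX and 11.43 ± 0.20 in Neurog1-Ctrl (0.43 ± 0.49, adjusted p = 0.834), with Neurog1-OBX replicate 3 the highest array. Stmn2 differed by 0.05 ± 0.38, Stmn3 by -0.35 ± 0.38 and Stmn4 by 0.19 ± 0.39, and arrays of every gene overlapped. The intervals ran from -0.60 to 1.46 for Stmn1, -0.74 to 0.84 for Stmn2, -1.15 to 0.44 for Stmn3 and -0.63 to 1.01 for Stmn4.

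The contrast of both lesion effects was tested directly. The Stmn1 effect was 3.38 in the OMP line and 0.43 in the Neurog1 line, a difference of 2.95 ± 0.69 (adjusted p = 0.0333), in a contrast that called 1.97% of genes and 1.27% as larger in the OMP line. It missed the threshold in 9 of the 12 fits without 1 array: without Neurog1-Ctrl replicate 1 (2.89, adjusted p = 0.0812), 2 (2.90, 0.0773) or 3 (3.07, 0.0586), without Neurog1-OBX replicate 1 (2.94, 0.0504) or 2 (2.68, 0.0942), without OMP replicate 1 (2.43, 0.0898), and without OMP-OBX replicate 1 (2.87, 0.0762), 2 (3.03, 0.0594) or 3 (2.95, 0.0720). The contrasts of Stmn2 (1.37 ± 0.53, adjusted p = 0.208), Stmn3 (1.53 ± 0.54, adjusted p = 0.164) and Stmn4 (0.68 ± 0.55, adjusted p = 0.604) did not pass.

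OMP-OBX against Neurog1-OBX compares both lesioned sorts. With limma 0 of 4 stathmins passed, 1 had an unadjusted p under 0.05, and 25% of genes were called. Stmn1 averaged 11.12 ± 0.16 in OMP-OBX and 11.86 ± 0.54 in Neurog1-OBX (-0.74 ± 0.49, adjusted p = 0.303), with an interval of -1.77 to 0.29. Stmn2 was 13.66 ± 0.17 and 14.55 ± 0.12 (-0.89 ± 0.38, adjusted p = 0.0946), and it passed under 4 of 12 other settings. Stmn3 differed by 0.07 ± 0.38 and Stmn4 by 0.60 ± 0.39. For Stmn1 the unlesioned lines differed by -3.69, as given above. The gap between -0.74 and -3.69 is the lesion contrast of 2.95 arranged another way, so it adds no separate evidence.

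**Figure D2:**
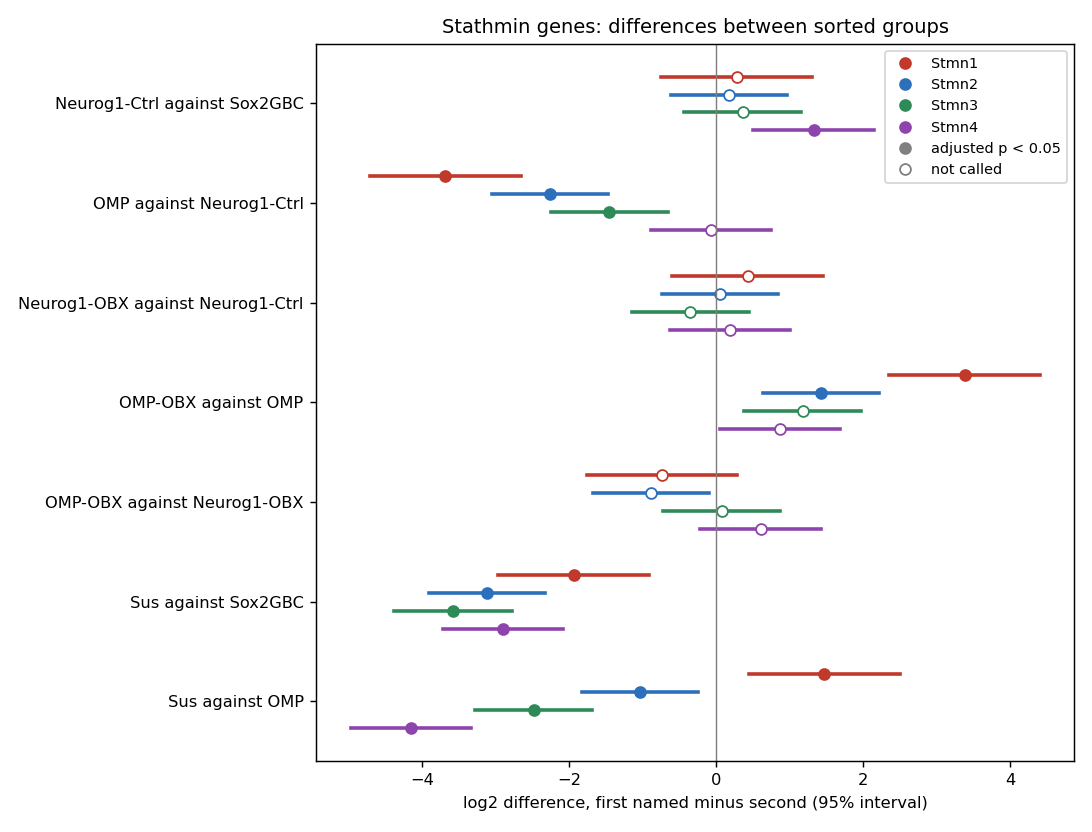
Differences in normalized log2 intensity (horizontal axis, first named group minus the other) for the 4 stathmin genes in 7 comparisons of sorted groups, with 95% intervals; filled points were called at an adjusted p under 0.05. The Stmn1 point stands at -3.69 for OMP against Neurog1-Ctrl and at 3.38 for OMP-OBX against OMP.

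Sus against Sox2GBC sets supporting cells beside low GFP cells of the same cross. All 4 stathmins were lower in Sus, with no overlap of arrays, where 52% of genes were called and 28.8% were lower. Stmn3 averaged 8.55 ± 1.12 in Sus and 12.13 ± 0.14 in Sox2GBC (-3.58 ± 0.38, 12.0-fold, adjusted p = 3.97e-07). Stmn2 averaged 11.20 ± 1.27 and 14.33 ± 0.15 (-3.13 ± 0.38), Stmn4 7.83 ± 0.93 and 10.73 ± 0.45 (-2.90 ± 0.39), and Stmn1 9.21 ± 1.40 and 11.15 ± 0.03 (-1.94 ± 0.49, adjusted p = 0.00259). These calls held in all fits without 1 array, but without Sus replicate 1 the Stmn1 difference was -1.14 (adjusted p = 0.0171).

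Set against OMP, Sus was lower in the 3 mainly neuronal stathmins and higher in Stmn1. Stmn4 averaged 7.83 ± 0.93 in Sus and 11.98 ± 0.18 in OMP (-4.16 ± 0.39, 17.8-fold, adjusted p = 2.87e-08), and Stmn3 8.55 ± 1.12 and 11.03 ± 0.17 (-2.49 ± 0.38). Stmn1 averaged 9.21 ± 1.40 and 7.74 ± 0.92 (1.47 ± 0.49, adjusted p = 0.0144), with arrays that overlapped. In this comparison 59.9% of genes were called, 29% higher and 30.9% lower. Without Sus replicate 1 the Stmn1 difference was 2.27. The Stmn1 call ended without OMP replicate 1 (0.95, adjusted p = 0.110), Sus replicate 2 (1.002, adjusted p = 0.104) or Sus replicate 3 (1.14, adjusted p = 0.0788). The Stmn2 call ended without OMP replicate 2 (-0.89, adjusted p = 0.0844), Sus replicate 1 (-0.99, adjusted p = 0.0590) or Sus replicate 2 (-0.42, adjusted p = 0.231), and without Sus replicate 3 the difference was -1.69.

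Sus arrays differed among themselves in all 4 genes. Stmn2 signal before normalization was 1530, 404 and 7327 units in Sus replicates 1, 2 and 3, and Stmn3 signal 258, 75.5 and 1010 units. Immature neuron markers summed to 12.91, 12.78 and 14.01 on the same arrays, mature neuron markers to 14.98, 14.79 and 14.85, and Omp averaged 13.95 ± 0.24. Sus replicate 3 was thus highest in Stmn2, Stmn3, Stmn4 and the immature neuron markers. Stmn1 signal before normalization was 121, 453 and 1179 units, highest on replicate 3, whereas its normalized level was highest on replicate 2. Stmn1 also spread between technical repeats of 1 RNA: the mREF arrays read 8.17, 9.80 and 8.10 with all 24 arrays normalized together. That spread is wider than the called Stmn1 difference of Sus against OMP (1.47). Whether neuronal RNA contributes to the stathmin signal of Sus was not tested.

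Relative to the whole mucosa, which mixes all of these cells, Sox2GBC and Neurog1-Ctrl were higher in 3 stathmins. Stmn1, Stmn2 and Stmn3 were higher in Sox2GBC than in OM (2.32 ± 0.49, 1.54 ± 0.38 and 1.08 ± 0.38, with 32.8% of genes called and 16.9% higher) and in Neurog1-Ctrl than in OM (2.59 ± 0.49, 1.71 ± 0.38 and 1.44 ± 0.38, with 36.7% called and 18.4% higher). Stmn4 did not pass in either (-0.35 ± 0.39 for Sox2GBC and 0.98 ± 0.39, adjusted p = 0.0580, for Neurog1-Ctrl), and the Neurog1-Ctrl difference passed without OM replicate 2 (1.23, adjusted p = 0.0346) or 3 (1.22, adjusted p = 0.0371). In Sus, Stmn2 (-1.59 ± 0.38), Stmn3 (-2.51 ± 0.38) and Stmn4 (-3.25 ± 0.39) were lower than in OM, and Stmn1 was not called (0.37 ± 0.49), with 48.5% of genes called and 25.2% lower. Without Sus replicate 1 the Stmn1 difference was 1.18 (adjusted p = 0.0150) and without Sus replicate 2 it was -0.09. In OMP against OM limma called 0 of the 4 genes (1 higher and 1 lower at an unadjusted p under 0.05), where 20.5% of genes were called: Stmn1 read -1.10 ± 0.49 (adjusted p = 0.121) and Stmn4 0.90 ± 0.39 (adjusted p = 0.110). With the noise class as a block both were called, Stmn1 at -1.32 (adjusted p = 0.0163) and Stmn4 at 0.95 (adjusted p = 0.0389), and without OMP replicate 1 Stmn1 read -0.58. The Stmn2 difference of Sus against OM read -0.97 without Sus replicate 2 and -0.91 with the mean of its probes, and stayed called in both. All these comparisons share the OM arrays.

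Against mREF, the pool of cultured cell lines, the mucosa was higher in the 3 mainly neuronal stathmins and not in Stmn1. With all 24 arrays normalized together and mREF averaged to 1 sample, Stmn1 read 8.85, 8.58 and 8.98 in OM, against 8.17, 9.80 and 8.10 on the mREF arrays (0.11 ± 0.69, adjusted p = 0.908). Stmn2 averaged 12.76 ± 0.11 in OM and 8.80 ± 0.26 in mREF (3.96 ± 0.54, adjusted p = 4.27e-06), and the mean of its probes gave 2.21. Stmn3 and Stmn4 were not detected on any mREF array, so their differences are given as bounds that hold under this processing. These were at least 37.8-fold for Stmn3 (means 11.01 in OM and 4.64 in mREF, adjusted p = 7.50e-09) and at least 38.5-fold for Stmn4 (11.04 and 4.56, adjusted p = 8.98e-09). Under other settings the fitted difference was as low as 4.41 log2 units for Stmn3 and 4.52 for Stmn4, which lies below these bounds. Each bound sets the OM mean against a mREF mean in which every array enters at the higher of the probe's own level and the lowest level detected on that array. In this comparison 52.7% of 12495 genes were called and 27.4% were higher, and the lone mREF sample is assumed to vary like the mucosal groups.

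Both probes of Stmn4 were detected on all mucosal arrays and gave like differences, while the dimmer Stmn2 probe lay near background in several groups. The dimmer Stmn4 probe read 12.46 ± 0.35 in OMP-OBX and 11.58 ± 0.30 in OMP (0.88 ± 0.39), and 7.64 ± 0.82 in Sus, close to the differences of the brighter one. It passed for Neurog1-Ctrl against OM (1.02 ± 0.39, adjusted p = 0.0487, with 32.8% of probes called), where the brighter probe did not. The dimmer Stmn2 probe was detected on 3 of 3 arrays of Sox2GBC (7.64 ± 0.59), Neurog1-OBX (6.79 ± 0.21) and Neurog1-Ctrl (6.87 ± 0.10), on 1 of 3 arrays of OMP-OBX (5.64 ± 0.16), OMP (5.46 ± 0.36) and OM (5.45 ± 0.17), and on 0 of 3 of Sus (5.22 ± 0.57). It was lower in OMP than in Neurog1-Ctrl (-1.41 ± 0.28, adjusted p = 0.000858, with 32.7% of probes called), as the brighter probe was. Between OMP-OBX and OMP it read 0.18 ± 0.28 (adjusted p = 0.814, with 6.18% called), where the brighter probe read 1.42 ± 0.38, so the rise was not seen with both probes. With 1 of 3 arrays of the dimmer probe detected in each group, the size of its difference is uncertain. The mean of both Stmn2 probes rose by 0.80 after bulbectomy without passing (adjusted p = 0.104). In OMP-OBX against Neurog1-OBX only the dimmer Stmn2 probe among the 6 was called (-1.16 ± 0.28, adjusted p = 0.00629, with 22% called). The sizes of this difference and of that between OMP and Neurog1-Ctrl are uncertain, since 1 of 3 arrays was detected in OMP-OBX and in OMP.

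**Figure D3:**
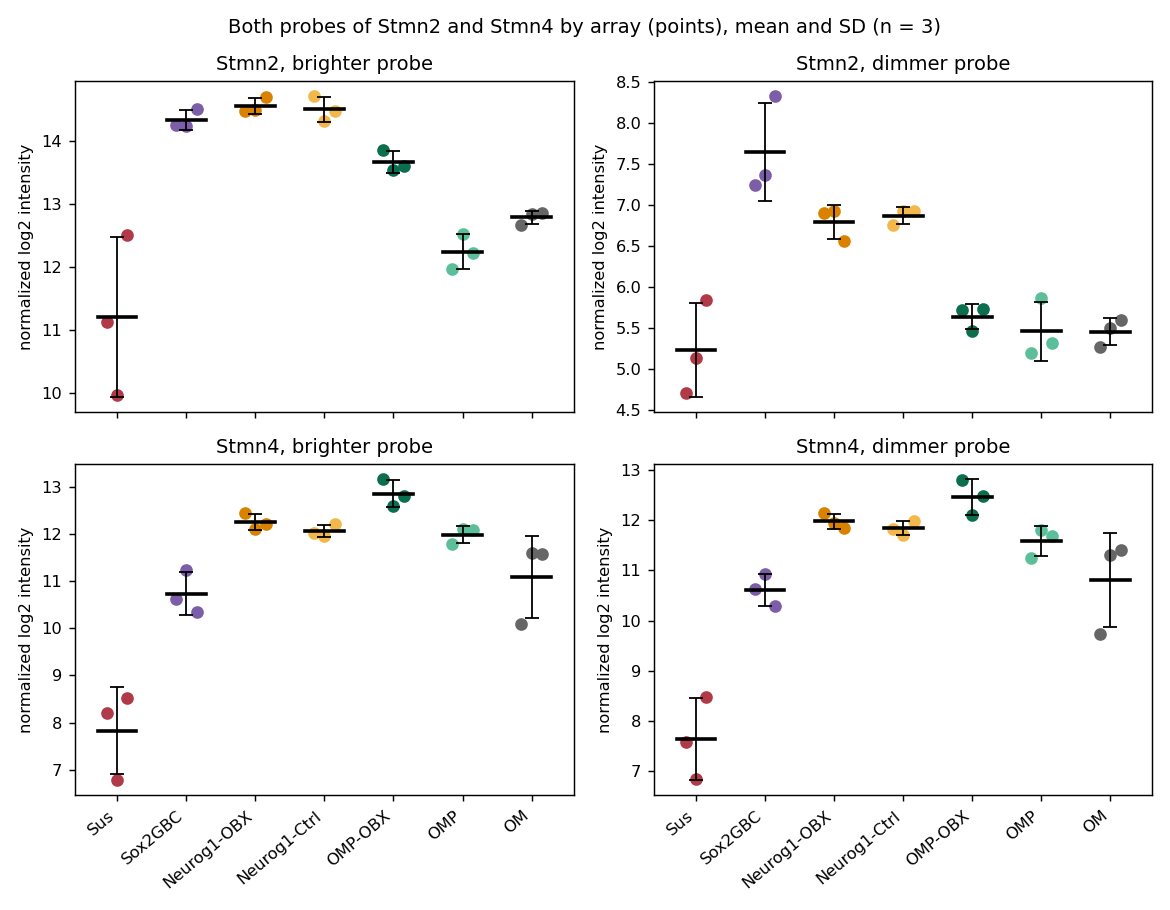
Normalized log2 intensity (vertical axes, each with its own range) of the brighter and dimmer probes of Stmn2 and Stmn4 in the 7 mucosal groups; points are arrays, bars the mean and SD of 3 arrays. Both Stmn4 probes show the same order of groups, while the dimmer Stmn2 probe separates Sox2GBC and the Neurog1 groups from the rest and reads 5.64 in OMP-OBX and 5.46 in OMP.

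The members were unequally alike over the 21 mucosal arrays. Pearson's r was 0.91 between Stmn2 and Stmn3, 0.88 between Stmn3 and Stmn4, 0.75 between Stmn1 and Stmn2, 0.67 between Stmn2 and Stmn4, 0.56 between Stmn1 and Stmn3 and 0.30 between Stmn1 and Stmn4. The arrays share groups, so these values are descriptions. Among 7815 genes whose group means spanned at least 1 log2 unit, the genes most like Stmn1 were Slc29a4, a monoamine transporter gene (r = 0.955), Insm1, a zinc finger factor of neuronal precursors (0.942), Armcx2 (0.930), Nol3 (0.924) and Nrep (0.922). Most like Stmn2 were Plekha6 (0.973), Cebpg, a bZIP factor gene (0.971), Kif5c, a kinesin heavy chain gene (0.969), Mllt11 (0.969) and the kinase gene Tnik (0.964). Stmn3 was closest to Uchl1, a neuronal ubiquitin hydrolase gene (0.983), Mef2b (0.978), Sh3gl2, an endophilin of synaptic vesicle recycling (0.977), Septin5 (0.977) and the channel gene Panx1 (0.974). Stmn4 was closest to Tmem198 (0.983), Cpe, a peptide processing carboxypeptidase (0.980), Hacd1 (0.976), Krt90 (0.970) and Tmem130 (0.969). No gene was named for more than 1 member. Many others were nearly as alike: r was above 0.9 for 18, 93, 173 and 305 genes with Stmn1, Stmn2, Stmn3 and Stmn4.

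Lists of genes that work with stathmins were set beside them in OMP against Neurog1-Ctrl, where 36% of all genes were called and 18.1% were lower. Of 9 tubulin genes tested, 0 were higher and 4 lower (median -0.44), among them Tubb2b (-2.001 ± 0.21) and Tubb5 (-1.42 ± 0.25), which build microtubules of growing neurites. Tubb4b read 0.05 ± 0.16. Of 13 kinases and phosphatases known to act on stathmins, 1 was higher and 6 lower (median -0.41), including the mitotic kinase gene Cdk1 (-2.57 ± 0.50) and Cdk5r1, the activator of neuronal Cdk5 (-1.44 ± 0.29), while Cdk5 itself did not pass (0.06 ± 0.22). Among 25 other microtubule regulators, 1 was higher and 10 lower (median -0.30), with Dpysl3 (-3.75 ± 0.43), Dpysl5 (-2.53 ± 0.30) and Mapt, the tau gene (-2.29 ± 0.32), lower. Axon growth genes had 0 higher and 10 lower of 16 (median -1.71), with Gap43 at -3.44 ± 0.40 and Gng8 at -4.72 ± 0.41, and mitosis genes 0 higher and 10 lower of 12 (median -1.88), with Nusap1 at -2.95 ± 0.57. The median over the 4 stathmins was -1.86 and over all genes 0.02.

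The same lists were read after bulbectomy in the OMP line, where 8.66% of all genes were called and 4.25% were higher; differences between lists were not tested. Tubulins held 2 higher and 0 lower, Tubb2b (1.85 ± 0.21, adjusted p = 1.23e-05) and Tubb5 (1.03 ± 0.25, adjusted p = 0.0109), with a median of 0.26. Microtubule regulators held 4 higher and 0 lower (median 0.18), namely Dpysl3 (2.10 ± 0.43), the doublecortin-like kinase gene Dclk1 (1.56 ± 0.26), Mapt (1.10 ± 0.32) and Map2 (1.01 ± 0.22). Axon growth genes held 8 higher and 0 lower (median 0.99), led by Gap43, which averaged 12.90 ± 0.31 in OMP-OBX and 9.52 ± 0.92 in OMP (3.38 ± 0.40, adjusted p = 2.97e-05), and Gng8 (2.50 ± 0.41). By limma, 0 of 13 kinases and phosphatases (3 higher and 0 lower at an unadjusted p under 0.05; median 0.05) and 0 of 12 mitosis genes (0 at an unadjusted p under 0.05; median 0.07) were called. Beside them the median over the 4 stathmins was 1.30 and over all genes -0.01. Several of these genes are also immature neuron markers above, and the lists were chosen with earlier results known.

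**Figure D4:**
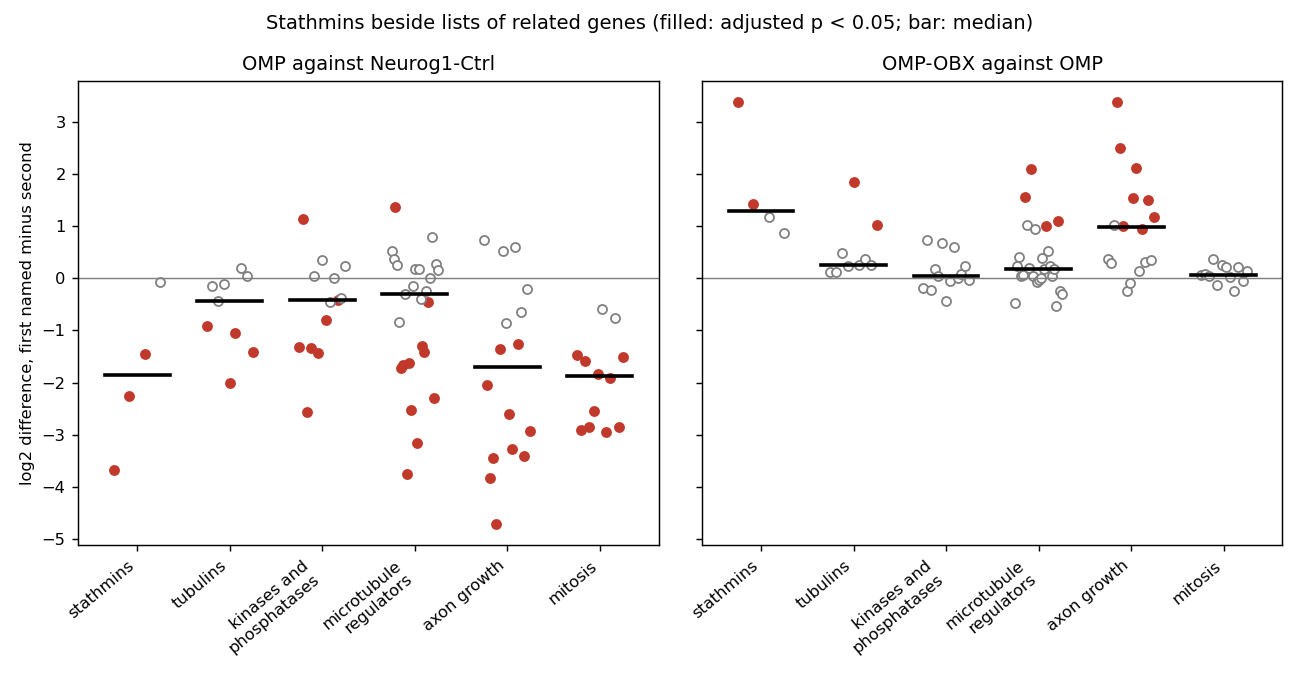
Difference in normalized log2 intensity (vertical axis, first named group minus the other) of each stathmin and each gene of 5 lists (horizontal axis), for OMP against Neurog1-Ctrl on the left and OMP-OBX against OMP on the right; filled points were called and bars are medians. Mitosis genes lie low on the left, with a median of -1.88, and around 0 on the right, with a median of 0.07, while Stmn1 stands at -3.69 and 3.38.

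The mitosis and axon growth lists were also set beside Stmn1 in further comparisons. In Sus against OMP, where 59.9% of all genes were called and 29% were higher, mitosis genes held 11 higher and 0 lower of 12 (median 3.16), including Cdc20 (4.02 ± 0.52), the activator of the anaphase complex, and Stmn1 read 1.47. In OMP-OBX against Neurog1-OBX, where 25% of all genes were called, mitosis genes held 0 higher and 10 lower of 12 (median -2.35), with Top2a at -3.21 ± 0.57, and Stmn1 read -0.74 ± 0.49 without passing. Axon growth genes in that comparison held 1 higher and 7 lower of 16 (median -0.58), with Gng8 at -2.11 ± 0.41. In Sus against OMP they held 8 higher and 5 lower (median 0.66). Stmn1 and the mitosis genes went opposite ways in Sus against Sox2GBC, where 52% of all genes were called and 23.1% were higher. There mitosis genes held 8 higher and 0 lower (median 1.37), and Stmn1 was called lower (-1.94 ± 0.49). In Sus against OM, with 23.3% of all genes higher, they held 8 higher and 0 lower (median 1.33), and Stmn1 was not called (0.37 ± 0.49). Sus arrays spread widely in genes of this kind. Cdk1 and Aurkb, mitotic kinase genes of the kinase list, averaged 9.63 ± 1.48 and 8.19 ± 1.50 in Sus (SD, n = 3).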

How the data were processed

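The deposited scanner table gives, for every probe on every array, a bead intensity before normalization and a detection p-value, made with GenomeStudio per the submitters' processing notes (version: not given in the sources used here). Negative intensity values show that background had been subtracted before deposit. The authors' deposited series matrix holds processed intensity values on a linear scale (column medians 120.7 to 121.0) (normalization: not given in the sources used here), used as an alternative.

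Intensities were background corrected from the detection p-values (normexp, limma 3.58.1, R 4.3.3), given an offset of 16, quantile normalized over the 21 mucosal arrays and log2 transformed. A probe was kept if its detection p was under 0.01 on at least 3 arrays, the brightest probe stood for its gene, and 11870 genes were fitted with lmFit and eBayes over 7 groups (14 residual degrees of freedom). OM against mREF used all 24 arrays and 12495 genes. Adjusted p values are Benjamini-Hochberg values from limma, called under 0.05. All members' probes were also fitted among 21711 probes. Of 45281 probes, 34885 had 1 gene symbol in the platform annotation, 18 several and 10378 none.

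Members and lists were chosen with earlier results of these data known. The genes named are all stathmin probes, the 5 genes most correlated with each, up to 4 called and 2 other genes per list and comparison, and the reporter genes. Tubb3, Neurog1 and other markers come from fixed marker lists. Replicate numbers were checked for pairing by the correlation of deviations from group means: only OMP and OM had every pair over 0.1 (0.53, 0.11 and 0.25), and no label ties the numbers to a shared day. Alternatives were background, normalization, filter, probe choice, groups fitted, array weights, blocks on noise class (classes split at negative control SDs of 5.4, 8.5 and 13) or replicate number, and leaving out each array. The number of arrays limits the precision.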

Additional observations from a re-analysis of the deposited data

Results flagged for a closer look

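The bulbectomy effect on Stmn1 differed between the reporter lines by the contrast of both effects: it was 3.38 in the OMP line and 0.43 in the Neurog1 line, a difference of 2.95 ± 0.69 log2 units (limma, adjusted p = 0.0333; 3 arrays per group). Every OMP-OBX array was above every OMP array, while arrays of Neurog1-OBX and Neurog1-Ctrl overlapped. The call was lost in 9 of the 12 fits without 1 array (2.43 to 3.31 over all 12, adjusted p = 0.0254 to 0.0942), the lowest value being that without OMP replicate 1, and without a filter on low values (adjusted p = 0.0569). In this contrast the reporter line and the stage of the cells cannot be told apart.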

How the results depend on the processing

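Each of the 4 genes was recomputed under 255 alternatives, summed over 14 comparisons, and 236, 231, 229 and 236 of them kept direction and call for Stmn1, Stmn2, Stmn3 and Stmn4. The cause of the other values was not tested. For Stmn3 in OMP-OBX against OMP, which just missed the threshold, the difference passed without background correction (1.16), with cyclic loess (1.16), median scaling (1.27), the authors' deposited processed values (1.15), the compared groups alone (1.17), mREF in the fit (1.18) and array weights (1.17). Stmn4 in Neurog1-Ctrl against OM passed without background correction (0.96), with median scaling (0.99), the authors' deposited processed values (0.95), the mean of all probes (0.9997), mREF in the fit (0.98) and array weights (0.56). Stmn2 in OMP-OBX against Neurog1-OBX passed with cyclic loess (-0.97), the mean of probes (-1.02), the compared groups alone (-0.89) and array weights (-0.95).

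The small Stmn2 difference of Neurog1-Ctrl against Sox2GBC turned negative with cyclic loess (-0.077), median scaling (-0.12), the mean of probes (-0.30) and the noise class block (-0.12). Stmn4 in OMP against Neurog1-Ctrl turned positive with cyclic loess (0.0097) and the noise class block (0.18), Stmn3 in OMP against OM with median scaling (0.051) and the noise class block (0.025), and Stmn2 in Neurog1-OBX against Neurog1-Ctrl turned negative with the mean of probes (-0.012). The noise class block ended the calls of Stmn4 in Neurog1-Ctrl against Sox2GBC (0.91), Stmn2 in OMP-OBX against OMP (1.30) and Stmn2 in Sus against OMP (-0.74), and gave calls in OMP against OM for Stmn1 (-1.32) and Stmn4 (0.95). The mean of probes ended the Stmn2 calls in OMP-OBX against OMP (0.80) and Sus against OMP (-0.63). Without a filter, Stmn3 in Sox2GBC against OM (1.08, limma adjusted p = 0.0590) and the Stmn1 contrast of lesion effects (2.95, adjusted p = 0.0569) missed the threshold. With the compared groups alone, Sus against OMP lost Stmn1 (1.47) and Stmn2 (-1.03), while the lesion contrast gained Stmn2 (1.37) and Stmn3 (1.53). Array weights gave calls for Stmn4 in Sox2GBC against OM (-0.66) and for Stmn3 in the lesion contrast (1.60).

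Over fits without 1 array, values ran from 0.72 to 1.26 for Stmn3 in Sox2GBC against OM, 0.48 to 1.23 for Stmn4 in Neurog1-Ctrl against OM, -0.37 to 0.16 for Stmn3 in OMP against OM and -0.094 to 1.18 for Stmn1 in Sus against OM. They ran from 1.13 to 1.57 for Stmn4 in Neurog1-Ctrl against Sox2GBC, -1.20 to -1.03 for Stmn3 and 1.06 to 1.50 for Stmn4 in OMP against Sox2GBC, and -0.13 to 0.029 for Stmn4 in OMP against Neurog1-Ctrl. For the lesion they ran from -0.039 to 0.16 for Stmn2 in Neurog1-OBX against Neurog1-Ctrl, 1.29 to 1.57 for Stmn2 in OMP-OBX against OMP, -0.046 to 0.29 for Stmn3 in OMP-OBX against Neurog1-OBX and 2.43 to 3.31 for the Stmn1 contrast. They ran from 0.95 to 2.27 for Stmn1 and -1.69 to -0.42 for Stmn2 in Sus against OMP, and -0.18 to 0.67 for Stmn1 in OM against mREF. Calls did not change over -2.41 to -1.14 for Stmn1 in Sus against Sox2GBC, -1.45 to -0.58 for Stmn1 in OMP against OM and -2.24 to -0.97 for Stmn2 in Sus against OM.

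With the replicate number as a block, the calls of all 4 genes stayed as they were in every comparison fitted: the Stmn1 contrast was 2.95 (adjusted p = 0.0306) and Stmn2 in OMP-OBX against OMP 1.42 (adjusted p = 0.0207). Counts of called genes moved by over 1.5 times in 6 comparisons. The lesion contrast called 234 genes, against 141 with median scaling, 371 with the compared groups alone, 793 with array weights and 104 to 143 in 9 fits without 1 array. Neurog1-OBX against Neurog1-Ctrl called 45, against 182 with the compared groups alone, 591 with array weights, 94 with the noise class block and 8 to 28 without 1 array. OMP against OM called 2431, against 980 with the compared groups alone and 1435 without OMP replicate 3. Neurog1-Ctrl against Sox2GBC called 2019, against 4190 with array weights, 1165 without Neurog1-Ctrl replicate 1 and 1192 without replicate 3. Neurog1-Ctrl against OM called 4362, against 6696 with array weights, and OMP-OBX against OMP called 1028, against 651 without OMP replicate 1 and 654 without OMP-OBX replicate 1. The 3 arrays a group limit the precision, and the dimmer Stmn2 probe lies near background in 4 groups.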
